A study of Mus musculus with 12 samples.

Results

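Janus kinases (JAKs), signal transducers and activators of transcription (STATs) and their inhibitors carry the signals of many cytokines from the cell surface to the nucleus. A cytokine brings its receptor chains together, the JAKs bound to these chains phosphorylate each other and the receptor, and STATs that dock there are phosphorylated, pair and enter the nucleus to drive transcription. CIS and the suppressors of cytokine signaling (SOCS) bind receptors or JAKs and, with their SOCS box, recruit a ubiquitin ligase, whereas the PIAS proteins act on STATs in the nucleus. In group-2 innate lymphoid cells (ILC2s), this pathway serves the receptors for IL-2, IL-4, IL-7, IL-9 and thymic stromal lymphopoietin.

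ILC2s were sorted from the lungs of male mice with the genotype TIGIT-Cre-ERT2:Rosa26-LSL-tdTomato, all of which had received papain and tamoxifen, and their ages are not given in the labels. Cre-ERT2 is placed under the control of the *Tigit* locus, so cells that expressed TIGIT while tamoxifen was given, and their progeny, carry the red fluorescent protein tdTomato. The labels list 4 RNA libraries each of tdTomato- and tdTomato+ ILC2s and 2 libraries each of the assay for accessible chromatin, which were not analysed here. Each RNA library was made from a small pool of sorted cells with a low-input kit, and nothing in the labels says which libraries came from separate mice. Both populations were gated as lineage-negative and as positive for CD45 (*Ptprc*), CD127 (*Il7r*), CD25 (*Il2ra*) and ST2 (*Il1rl1*). The presence of these transcripts is thus no finding, nor is a lack of lineage markers. Genes were chosen by symbol from the deposited tables of genes lower and higher in tdTomato+ ILC2s: the JAKs including *Tyk2*, the STATs, *Cish*, *Socs1* to *Socs7* and *Pias1* to *Pias4*. The results cover 10 of the 3439 listed genes.

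For each listed gene, the tables give 1 level, the average log2 CPM (read counts scaled to the total of a library) over the libraries of the fit, a value that both populations share. They hold no value of a single library, so depth, the spread between replicates and the level in each population are not known here, and no difference between the populations was tested. The tables otherwise hold the depositors' own comparison, whose values are not used here. In bulk libraries, less RNA per cell and fewer cells that express a gene cannot be told apart. No listed gene had an average log2 CPM under 5.00, so a gene that is absent may have been too low, or may not have passed the depositors' test. Of the 14 genes chosen as ILC2 markers, 14 were listed, all as lower in tdTomato+ ILC2s, from 6.27 (*Il13*) to 9.98 (*Il1rl1*). Of all annotated protein-coding genes, 15.5% were listed, and 84.5% of all listed genes stood as lower. Of the markers of other cells, 0 of 4 for B cells and 0 of 5 for natural killer cells were listed. For macrophages 0 of 7 and for epithelium 0 of 4 were listed. For T cells 1 of 7 was listed (*Cd3g*, 6.12, lower), and for fibroblasts and endothelium 1 of 5 (*Col1a2*, 5.68, higher). A marker is listed only where the depositors called a difference between the populations, so these counts do not measure the purity of the sort.

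Of 22 annotated genes of these families considered here, 10 (45.5%) were listed, against 15.5% of all 21951 annotated protein-coding genes, a background that includes genes without expression in these cells. The members comprised 4 of 4 JAKs, 4 of 6 STATs, 2 of 8 genes of CIS and SOCS proteins and 0 of 4 PIAS genes. All 10 stood in the table of genes lower in tdTomato+ ILC2s, where 84.5% of all listed genes stood, and 0 in the table of higher genes. Not listed were *Stat2*, *Stat5a*, *Socs1*, *Socs2*, *Socs3*, *Socs5*, *Socs6*, *Socs7* and *Pias1* to *Pias4*, and for these genes neither level nor direction is known.

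The promoters of the members were searched in RefSeq windows (GRCm38.p6) of 250 bases before and 50 bases from each gene's start for TTCNNNGAA, the motif that most STATs bind and that reads the same on both strands. The bases around the matches of *Cish* are shown because it encodes CIS, an inhibitor that cytokines induce through STAT5, and was the only member with the motif. Capitals mark the motif in the 30 bases at chr9:107296654-107296683 (plus strand).

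Cish start: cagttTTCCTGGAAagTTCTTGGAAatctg

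The matches were TTCCTGGAA, which begins at the first base of the RefSeq window's transcribed part (chromosome 9, 107296659 to 107296667), and TTCTTGGAA, which begins at its base 12 (107296670 to 107296678). Their first bases lie 11 bases apart. This start lies 633 bases downstream of the gene's first base in GENCODE M21, where both matches lie in the first exon of the transcript with the longest coding sequence (107296026 to 107297034), before its start codon at 107297015. Among all 27025 genes with a window, 9.55% held at least 1 match and 0.540% held 2 or more. Of the 10 members with a window, 1 held the motif (10%, Wilson 95% interval 1.79% to 40.4%), a share near that of all genes. Of the 22 genes considered here, 16 had a window. Among those that were not listed, *Socs3* held 1 match, TTCTTAGAA, at position -154 from its RefSeq start on the minus strand of chromosome 11. This match (117969512 to 117969520) lies within the gene as annotated in GENCODE M21 (117966079 to 117970047). The form with 4 bases between TTC and GAA, to which STAT6 is known to bind, was found in 0 of the 10 members and in 8.01% of all genes. *Stat2*, which was not listed, held 1 match of this form. The windows of the members ranged in GC content from 46.0% (*Stat4*, the window of its downstream start) to 82.7% (*Stat5b*, its upstream start). The other window of *Stat5b* had 47.3%. The median was 57.7% over the 12 windows of the members and 52.7% over all 32851 windows.

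The median average log2 CPM of the members was 6.95, against 6.23 for all 3439 listed genes and 6.39 for the 2906 genes of the lower table. Of the members, 7 lay above the median of all listed genes and 3 below it. Divided by the length of all exons, the median was 16.9 CPM per kb for the members. It was 13.7 for the listed genes with an annotated length, and *Socs4*, *Stat5b* and *Tyk2* lay below that. Among the members, the JAKs spanned 5.92 to 8.60, the STATs 5.90 to 7.24 and the CIS and SOCS pair 6.28 to 6.85.

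**Figure D1:**
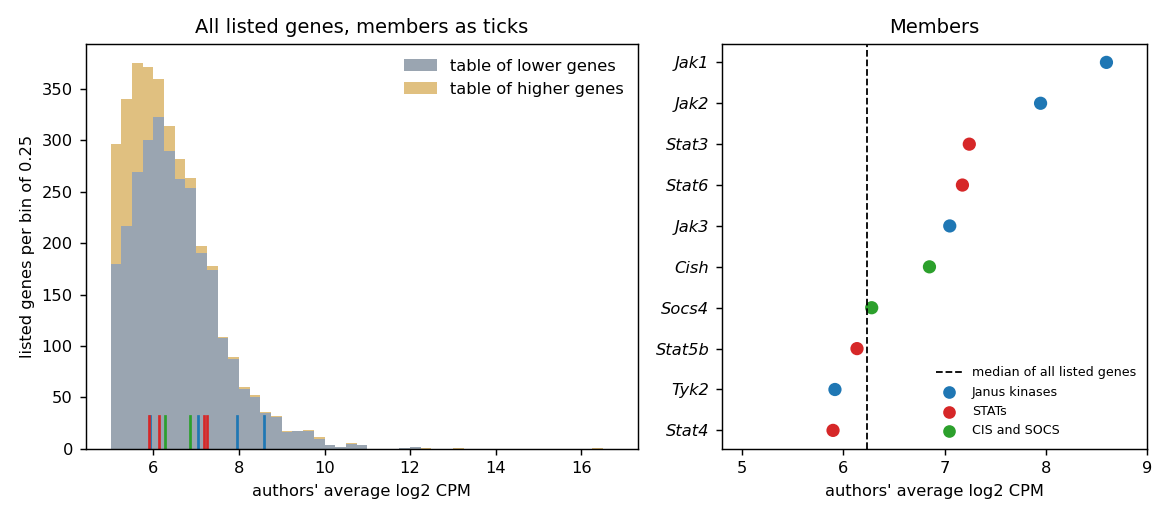
Left, number of listed genes per bin of average log2 CPM, stacked by table, with the 10 members as coloured ticks. Right, average log2 CPM of each member by family, with the median of all listed genes (6.23) dashed. *Jak1* (8.60) and *Jak2* (7.95) stand highest, and *Stat4* (5.90) and *Tyk2* (5.92) lowest.

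The JAKs are the kinases at the head of the pathway. *Jak1*, whose product pairs with most of the receptors that ILC2s use, had an average log2 CPM of 8.60 (387 CPM), and ranked 138 of the 3439 listed genes. It lies on the minus strand of chromosome 4 (GRCm38, 101152367 to 101265282). *Jak2*, the kinase of receptors such as those for IFN-γ and granulocyte-macrophage colony-stimulating factor, followed with 7.95 (247 CPM). *Jak3*, which binds the common gamma chain, had 7.05 (132 CPM), and *Tyk2*, which serves the receptors for type I IFN and IL-10, had 5.92 (60.4 CPM). *Tyk2* was thus the only JAK below the median of the listed genes, of which 36.9% were lower. The summed level of the 4 JAKs was 827 CPM, against 426 CPM for the 4 STATs reported here and 193 CPM for *Cish* and *Socs4*. These sums are not divided by gene length and leave out genes that are not listed or not reported here, so they do not compare whole families.

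CPM are not divided by gene length, so levels were set against each other per kb of exon (union of all exons, GENCODE M21). On this scale, *Jak1* had 53.6 CPM per kb, *Jak2* 49.0, *Jak3* 24.8 and *Tyk2* 8.79. The ratio of *Jak1* to *Jak2* was 1.09, and that of *Jak1* to *Tyk2* was 6.09. *Jak1*, *Jak2*, *Jak3* and *Tyk2* kept this order per kb of coding sequence, where the ratio of *Jak1* to *Jak2* was 1.54 and that of *Jak1* to *Tyk2* 6.72. No error can be attached to these ratios, and whether neighbours in the order differ beyond the spread between libraries was not tested.

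STATs are the transcription factors that the JAKs activate. *Stat3*, which acts downstream of IL-6 family cytokines, IL-10 and IL-21, had the highest average log2 CPM among the 4 reported here, 7.24 (151 CPM). *Stat6*, the factor of IL-4 and IL-13 signaling, was close with 7.17 (144 CPM). *Stat5b*, which responds to IL-2 and IL-7, had 6.13 (70.2 CPM), and *Stat4*, best known from IL-12 signaling, had 5.90 (59.6 CPM). By CPM, *Stat3* and *Stat6* stood above 81.2% and 79.6% of the listed genes, whereas *Stat5b* and *Stat4* stood below their median. Per kb of exon, *Stat6* stood above 85.6%, *Stat3* above 59.2%, *Stat4* above 57.0% and *Stat5b* above 44.8% of the listed genes with an annotated length. The place of *Stat4* relative to the median thus rests on whether length is counted.

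Per kb of exon, the order of the STATs was *Stat6* (32.8 CPM per kb), *Stat3* (15.9), *Stat4* (15.4) and *Stat5b* (12.7). *Stat6* stood 2.06 times above *Stat3* on this scale. Per kb of coding sequence the pair changed places, with 57.5 for *Stat6* and 65.6 for *Stat3*, as did *Stat4* (26.5) and *Stat5b* (29.8). The exons of *Stat3* cover 9527 bases in the annotation, of which its longest coding sequence takes 2310, and those of *Stat6* cover 4402 with 2511 coding bases. All 4 stood above *Tyk2*, the lowest member on both scales (16.7 CPM per kb of coding sequence). Per kb of the transcript with the longest coding sequence, *Socs4* (11.3) was lower than *Tyk2* (13.1).

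**Figure D2:**
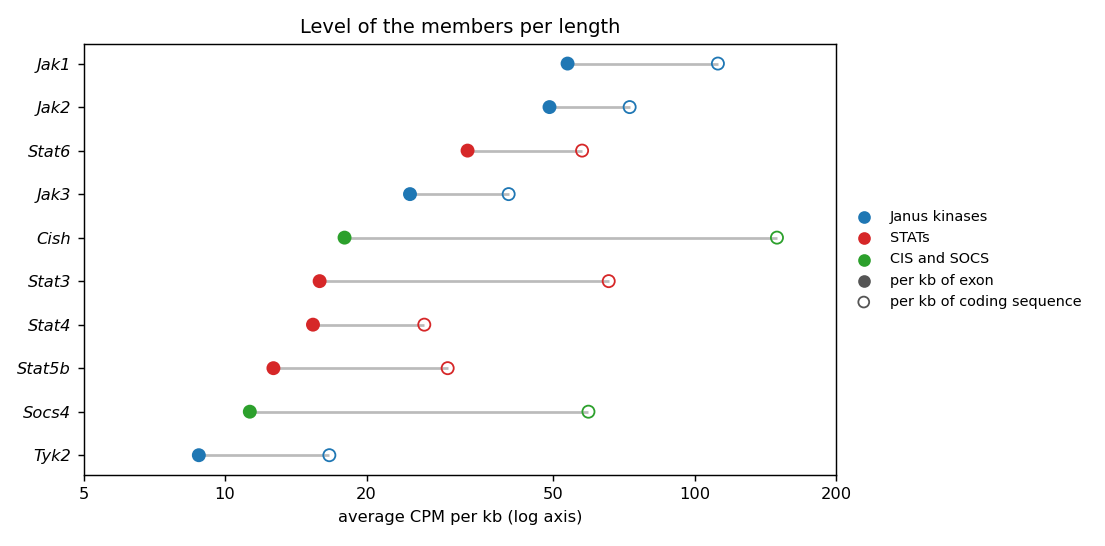
Average CPM per kb of each member on a log axis, divided by the length of all exons (filled) or by the longest coding sequence (open), with a line joining both. *Jak1* leads per kb of exon (53.6) and *Cish* per kb of coding sequence (150), whereas *Tyk2* is lowest on both scales.

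Some STAT genes could share reads with other genes through overlap or similarity. *Stat4* lies on the plus strand of chromosome 1 (51987148 to 52107189, GRCm38). Of its exonic bases, 1033 (26.7%) are shared with an annotated noncoding transcript on the same strand that was not listed. Of all stretches of 50 bases in the transcripts of *Stat4*, 21.7% occurred also in transcripts of another gene, the largest share among the members. Depending on settings that are not given in the sources used here, the counting step leaves out or divides reads that fall on 2 genes, and the part of this overlap in the level of *Stat4* was not tested.

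On chromosome 11, *Stat5b* (100780731 to 100850724, minus strand), *Stat5a* and *Stat3* (100885098 to 100939540, minus strand) lie in this order. *Stat5a* lies 8626 bases from *Stat5b* and overlaps the last 72 bases of *Stat3* on the other strand. The products of *Stat5a* and *Stat5b* were identical at 85.6% of the residues of the shorter protein in a global alignment, and 608 of the 5535 stretches of 50 bases of *Stat5b* occurred also in another gene, all of them in *Stat5a*. *Stat5b* was listed and *Stat5a* was not, and the tables do not show whether *Stat5a* missed the limit on the level or the test. The level of *Stat5b* is uncertain to the extent that reads were divided between the paralogs. *Stat6* lies on chromosome 10 (127642986 to 127660957, plus strand) and shares 40 exonic bases with *Nab2* on the other strand, and 0 of its stretches of 50 bases occurred in another gene. *Stat2* follows at a distance of 610 kb and was not listed.

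**Figure D3:**
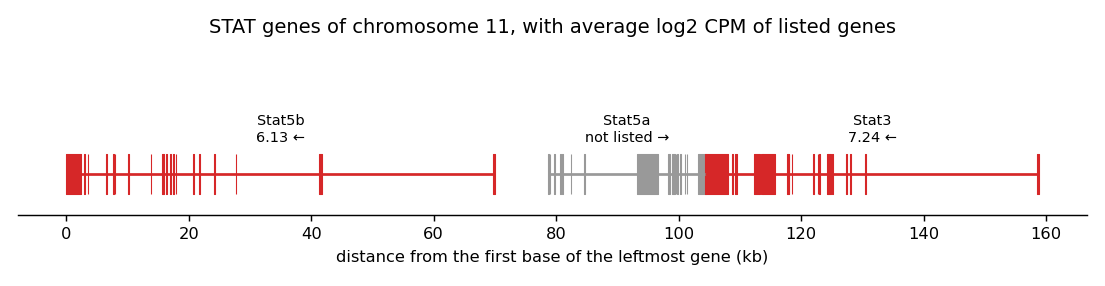
Exons (boxes) of the STAT genes of chromosome 11 by distance in kb from the first base of *Stat5b* (GRCm38, GENCODE M21), with strand arrows and the average log2 CPM of listed genes in red. The unlisted *Stat5a* (grey) lies between *Stat5b* (6.13) and *Stat3* (7.24).

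Apart from *Stat5a* and *Stat5b*, the proteins within a family were less alike. Among the STAT members, protein identity ranged from 29.4% (*Stat3* with *Stat6*) to 48.7% (*Stat3* with *Stat4*), and among the JAKs from 40.8% (*Jak1* with *Jak3*) to 49.5% (*Jak2* with *Jak3*). None of the stretches of 50 bases of *Jak1* and *Jak2* occurred in another gene. *Jak3* shared 7.21%, mainly with *Insl3*, a neighbour on the same strand that encodes a hormone of the testis. *Tyk2* shared 7.52%, mainly with the antisense gene *1700084C06Rik*. Neither partner was listed. Libraries were stranded, but the use of strand in counting is not given in the sources used here.

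*Cish* and *Socs4* were the listed inhibitors. *Cish* (chromosome 9, 107296026 to 107302784, plus strand) had an average log2 CPM of 6.85 (115 CPM), above 71.2% of the listed genes. *Socs4*, best known as a regulator of the epidermal growth factor receptor, lies on chromosome 14 (47276931 to 47296102, plus strand) and had 6.28 (77.6 CPM), close to the median of all listed genes. Per kb of exon the pair had 18.0 and 11.3 CPM, a ratio of 1.59, and per kb of coding sequence 150 and 59.4, a ratio of 2.52. Among the listed genes with an annotated length, *Cish* stood above 65.3% per kb of exon and *Socs4* above 37.3%. The place of *Cish* among the members rests on the length used: it was number 5 per kb of exon and number 1 per kb of coding sequence. Per kb of the transcript with the longest coding sequence it was number 3 (40.4). Its exons cover 6419 bases in the annotation, nearly the whole gene, and its coding sequence takes 771. In *Cish*, 9.35% of the stretches of 50 bases occurred also in another gene, mainly the antisense gene *Gm17041*. The proteins of *Cish* and *Socs4* have 257 and 436 residues and were identical at 24.9% of the shorter. The closest relatives of each, *Socs2* for *Cish* (46.5%) and *Socs5* for *Socs4* (54.1%), were not listed, nor were the classical inhibitors of JAKs, *Socs1* and *Socs3*.

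The remaining genes of the pathway were taken from 5 lists of 81 distinct genes, of which 45 (55.6%) were listed, against 15.5% of all annotated protein-coding genes, and 45 of these 45 stood in the table of lower genes, against 84.5% of all listed genes. These lists were set with earlier results of these data known, and the counts of each list stand against the same shares. Of 25 cytokine receptor chains that signal through JAKs, 11 were listed, with a median average log2 CPM of 6.66. The highest were *Il7r* (8.96) and *Il2ra* (8.61), on which the cells had been gated, followed by the common gamma chain *Il2rg* (7.13), *Il2rb* (6.77), the IL-10 receptor chain *Il10ra* (6.72) and *Il27ra* (6.66). Per kb of exon, *Il2rg* had 58.5 CPM and its kinase *Jak3* 24.8. The 14 receptor chains that were not listed included *Crlf2*, the chain for thymic stromal lymphopoietin, *Il10rb*, the partner of *Il10ra*, and *Il13ra1*, the partner of *Il4ra* (6.41) in the receptor for IL-13. Both chains of the IFN-γ receptor were listed, *Ifngr1* with 6.45 and *Ifngr2* with 5.32, whereas of the type I IFN receptor only *Ifnar1* (6.50) was.

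Of 16 phosphatases and adaptors, 11 were listed with a median of 6.30. They included *Ptprc* (9.53), which encodes CD45, on which the cells had been gated, and the ubiquitin ligase genes *Cbl* (7.30) and *Cblb* (6.54). The adaptors *Sh2b1* (6.38) and *Grb2* (6.30) were among them too, as was *Ptpn11* (6.30), which encodes the phosphatase SHP2. Of 6 genes of the elongin and cullin complex that binds the SOCS box, 1 was listed, *Elob* with 5.88. Of 17 nuclear partners of STATs, 14 were listed with a median of 6.69, led by the coactivators *Ep300* (7.88), *Crebbp* (7.85) and *Ncoa3* (7.50). The importin *Kpnb1* (7.40), the GTPase *Ran* (7.01) and the exportin *Xpo1* (6.88), which carry proteins through the nuclear pore, followed. Of 18 genes known as STAT targets, 9 were listed with a median of 6.74. The highest were *Gata3* (8.79), *Il2ra* (8.61) and the cyclin *Ccnd2* (8.07), followed by the survival gene *Mcl1* (6.87), the kinase gene *Pim1* (6.74) and *Bcl2* (6.52).

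**Figure D4:**
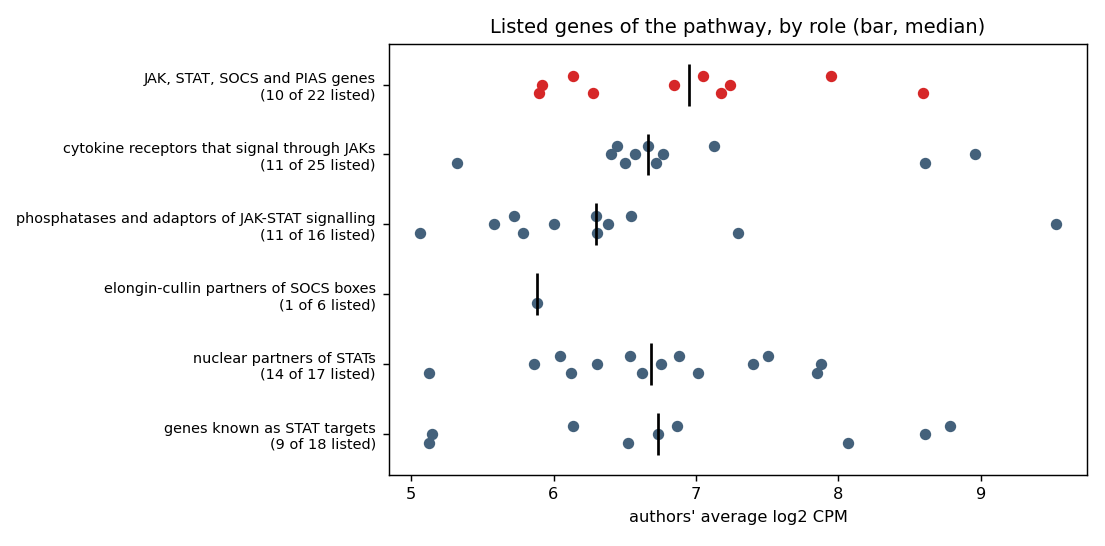
Average log2 CPM of each listed gene (points) and their median (bar), for the members (red) and for 5 lists of other pathway genes (blue), with the number listed in each. Medians run from 5.88 for the 1 listed elongin gene to 6.95 for the members. *Ptprc*, which encodes CD45, on which the cells had been gated, is the highest point (9.53).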

How the data were processed

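Lung tdTomato- and tdTomato+ ILC2s were measured by RNA sequencing. Alignment by the authors was with STAR to GRCm39 in the study's methods, whereas the labels name mm10. Reads per gene came from featureCounts, with edgeR for the comparison, per the labels. Versions, library normalization and the libraries of the fit are not given in the sources used here. The deposited log2 values are the authors' average log2 CPM, 1 per gene. The other columns of the tables hold the authors' comparison (log2 fold change, likelihood ratio, p-value and false discovery rate) and are not used. The tables hold 0 columns of per-sample values, so the depth of each library is unknown, and the planned limma test was not run.

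Members and lists were chosen with earlier results of these data known. A further gene that matched the rule is not reported here. Every other one is named, and of each list up to 6 of the listed genes with the highest level, and *Crlf2*, *Il10rb*, *Il13ra1*, *Il4ra*, *Ifngr1*, *Ifngr2*, *Ifnar1* and the marker genes were named after their values were seen. Ensembl identifiers were matched to GENCODE M21 (GRCm38) for 3436 of 3439 genes, an annotation that differs from the authors' release. The level per kb is 2 to the power of the log2 CPM, divided by the union of exons. Proteins were translated from the longest complete coding sequence and aligned globally (BLOSUM62, gap open 10, extend 0.5, end gaps free) with Biopython 1.88. Promoter windows came from RefSeq (GRCm38.p6), with 16 of 22 genes matched by symbol, and motifs were searched on both strands. A gene held a motif if any of its windows did. Intervals are Wilson's and cover counting error only. Stretches of 50 bases, a comparison added after seeing the data, were compared with all GENCODE M21 transcripts on both strands. The motif search was tested on simulated data. Python 3.11.15 was used. Alternatives were other reference sets of listed genes, other gene lengths, another motif spacing, the upstream part of the window and other gap costs, with 3 further ones chosen after seeing the data.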

Additional observations from a re-analysis of the deposited data

How the results depend on the processing

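The share of listed genes below the median level of the members, 74.3%, was 74.4% among protein-coding genes and 70.6% among the genes of the lower table. The median level per length, 16.9 CPM per kb of exon, was 58.4 per kb of coding sequence and 33.2 per kb of the transcript with the longest coding sequence, the latter chosen after seeing the data. This follows from the shorter lengths. The share of members with a promoter match was 0% with 4 bases between TTC and GAA and 0% when the bases after the start were left out, since both matches of *Cish* lie there. Counted per window, chosen after seeing the data, it was 8.33%. The highest identity between members, 49.5%, was 49.0% with the other gap costs. Stretch lengths of 50 and 100 bases were both chosen after seeing the data, and with 100 bases the largest shared part, that of *Stat4*, was 18.0% in place of 21.7%.

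No paired analysis was possible because the tables hold no value of a single library. For the same reason, other pseudocounts, a filter on low values and leaving out each library were not run. The depth of the libraries is unknown, so no limit of detection can be given.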
